A study of Mus musculus with 12 samples.

Results

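T follicular helper (TFH) cells are the CD4 T cells that help B cells in germinal centres, and 9 genes for transcription factors known to set that fate up or to hold it back were followed across 4 groups of mouse spleen libraries. The genes were chosen by name from that known biology, with earlier results of these data known. This makes counts over them a description. The genes are Bcl6, Prdm1, Ascl2, Tox, Tox2, Maf, Batf, Pou2af1 and Irf4. They are 9 of the 23246 gene features that could be read from the files, and all 9 were among the 11120 features that passed the filter on low values (at least 1 FPKM in at least 3 libraries). On GRCm38.p6, RefSeq places Bcl6 at chromosome 16:23965050-23988866, Prdm1 at 10:44437174-44528558 and Ascl2 at 7:142966822-142969264. Tox lies at 4:6686353-6991557, Tox2 at 2:163203058-163324172 and Maf at 8:115703253-115706894. Batf lies at 12:85686720-85709087, Pou2af1 at 9:51213690-51240079 and Irf4 at 13:30749233-30766981.

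The libraries were made from poly(A) RNA with a stranded kit, from CD4 cells sorted out of C57BL/6 spleen. Cells with both CXCR5 and PD-1 on their surface form the TFH groups, and cells with neither form the non-TFH groups. All mice were homozygous for a floxed Ets1 allele (Ets1 flox/flox). Those labelled WT carried no other allele, and those labelled KO (Ets1-CD4-cKO in the titles) also carried CD4-cre, a Cre that is active from an early thymic stage and so in all later CD4 and CD8 T cells, not in TFH cells alone. Each genotype and sort has 3 libraries, 12 in 4 groups. No group carries CD4-cre without the floxed allele, and age and sex are not given in the labels. The labels do not say whether the 3 libraries of a group came from separate mice, so the p-values below reflect only how far these samples scatter, a scatter that may be technical.

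BCL6 is the repressor that defines the TFH fate, and BLIMP-1, the product of Prdm1, represses Bcl6 and is repressed by BCL6 in turn. BATF, IRF4 and MAF act at the start of the programme, together with AP-1 and STAT factors, while ASCL2 switches on migration to the follicle and TOX2 with TOX helps to keep chromatin of TFH genes open. ETS1, the factor encoded by the floxed gene, belongs to the ETS family, which binds short DNA words around a GGAA core.

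To show where such words lie, the RefSeq start windows (GRCm38.p6, 300 bases each, in the direction of the gene) are printed for 4 members on which the results turn: Bcl6 and Prdm1 as the opposed pair, Tox2 because the libraries differ in where its entry begins, and Pou2af1 because it had the largest rise in KO TFH cells among the members. Capitals mark a match on either strand to AGGAAG or CCGGAA (ETS), TTCNNNGAA (BCL6 and STAT), TGANTCA (AP-1) or GAAA followed by any 2 bases and GAAA again (the IRF word), and neighbouring capitals can hold overlapping matches.
Bcl6, upstream start, chr16:23988803-23989102 minus strand: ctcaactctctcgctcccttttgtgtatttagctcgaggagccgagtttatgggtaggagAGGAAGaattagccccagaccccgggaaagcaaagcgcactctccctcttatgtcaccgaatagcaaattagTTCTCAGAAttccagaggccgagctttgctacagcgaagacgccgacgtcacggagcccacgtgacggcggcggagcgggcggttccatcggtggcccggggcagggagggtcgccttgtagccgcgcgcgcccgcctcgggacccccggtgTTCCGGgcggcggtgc
Bcl6, internal start, chr16:23981234-23981533 minus strand: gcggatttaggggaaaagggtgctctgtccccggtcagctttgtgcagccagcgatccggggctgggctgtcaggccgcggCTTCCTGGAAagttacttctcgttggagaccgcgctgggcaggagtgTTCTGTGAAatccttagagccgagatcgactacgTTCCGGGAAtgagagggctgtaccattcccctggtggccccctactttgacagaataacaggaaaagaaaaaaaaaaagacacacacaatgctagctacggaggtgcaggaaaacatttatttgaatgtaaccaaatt
Prdm1, chr10:44458699-44458998 minus strand: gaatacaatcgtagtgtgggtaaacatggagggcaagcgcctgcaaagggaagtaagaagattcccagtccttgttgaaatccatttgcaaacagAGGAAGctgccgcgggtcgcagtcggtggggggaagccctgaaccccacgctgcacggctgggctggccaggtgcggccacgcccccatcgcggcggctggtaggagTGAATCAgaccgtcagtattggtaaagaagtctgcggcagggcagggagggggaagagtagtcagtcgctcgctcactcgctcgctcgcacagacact
Tox2, upstream start, chr2:163202877-163203176 plus strand: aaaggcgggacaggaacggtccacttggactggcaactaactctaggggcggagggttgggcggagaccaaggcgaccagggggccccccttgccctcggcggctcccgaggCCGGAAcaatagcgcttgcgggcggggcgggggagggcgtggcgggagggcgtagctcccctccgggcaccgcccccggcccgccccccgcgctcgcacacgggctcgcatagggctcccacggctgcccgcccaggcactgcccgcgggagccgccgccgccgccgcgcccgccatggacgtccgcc
Tox2, downstream start, chr2:163225204-163225503 plus strand: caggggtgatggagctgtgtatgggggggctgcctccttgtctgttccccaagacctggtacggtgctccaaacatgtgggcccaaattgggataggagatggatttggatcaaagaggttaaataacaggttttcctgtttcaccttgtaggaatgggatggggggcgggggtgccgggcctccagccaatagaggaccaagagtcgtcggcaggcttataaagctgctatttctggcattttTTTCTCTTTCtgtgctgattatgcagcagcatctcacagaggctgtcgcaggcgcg
Pou2af1, chr9:51213440-51213739 plus strand: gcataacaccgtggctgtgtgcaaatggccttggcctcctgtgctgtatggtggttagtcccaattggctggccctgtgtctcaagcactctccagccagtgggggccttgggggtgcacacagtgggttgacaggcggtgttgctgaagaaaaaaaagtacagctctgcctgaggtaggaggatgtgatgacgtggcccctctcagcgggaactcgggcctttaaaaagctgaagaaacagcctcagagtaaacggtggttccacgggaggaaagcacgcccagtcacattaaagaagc

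Both Bcl6 windows hold both ETS words. The upstream one has a single TTCNNNGAA match and the internal one has 3, of which 2 overlap an ETS word. The Prdm1 window lies at an internal start, 44458748, while the RefSeq gene has its upstream end at 44528558, for which no window was given. That internal window holds AGGAAG and an AP-1 word. The upstream Tox2 window holds CCGGAA, and the downstream Tox2 window holds an IRF word across the start itself. The printed Pou2af1 window holds none of them, nor the octamer ATGCAAAT that its protein binds together with POU factors. These words are common: of 32851 such windows, 35.4% hold AGGAAG, 14.9% CCGGAA, 8.3% TTCNNNGAA, 7.81% TGANTCA, 3.44% the IRF word and 1.74% ATGCAAAT. A match is a description of the letters and not evidence of binding. The table gave windows for 7 of the 9 members, and of the members not printed, Ascl2 holds AGGAAG and Batf CCGGAA.

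All values below are FPKM (fragments assigned to a gene, per length of transcript and per depth of library), deposited by the authors and scaled here between libraries. They are per length, so levels of different genes can be set side by side. Each of the 108 member values (9 genes in 12 libraries) came from an entry with no other gene symbol in it. Of these, 4 were listed at 0, all of them Ascl2 in non-TFH libraries, and for 10 of the other 104 the deposited confidence bounds spanned more than 50% of the value on either side. These 10 were low values of Tox2, Irf4, Ascl2, Prdm1 and Pou2af1. Log2 changes are differences of mean log2(FPKM + 1), which understate the change of low genes, given with their standard error (SE). Their p-values come from limma across all 11120 features with Benjamini-Hochberg adjustment, and a change is called when the adjusted p is under 0.05. For each gene the fit pooled the spread over all 4 groups. The SE and p-value of a change therefore do not reflect the scatter of the compared groups alone.

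Some features of the series bear on every comparison. Ets1 itself was at similar or higher levels in the libraries labelled KO. It stood at 412, 413 and 404 FPKM in WT non-TFH, 415, 411 and 381 in KO non-TFH, 171, 204 and 216 in WT TFH and 224, 272 and 266 in KO TFH. A deletion of floxed exons can leave the rest of the transcript, so this gene total checks nothing, and WT and KO stand for the labels throughout. The sort was visible in the data: the summed level of the 5 measured TFH markers of 6 listed was 778 to 999 FPKM in WT TFH and 1122 to 1240 in KO TFH, against 23.8 to 38.6 in the 6 non-TFH libraries. Markers of other cells were also present. The 9 measured macrophage and monocyte markers of 10 listed summed to 979 to 1641 FPKM in WT TFH, 169.5 to 221.3 in KO TFH, 24.8 to 37.5 in KO non-TFH and 11.9 to 20.7 in WT non-TFH. All 9 were called lower in KO than in WT TFH cells. The 7 measured B cell markers of 8 listed summed to 62.9 to 71.5 in WT TFH and 36.3 to 41.7 in KO TFH, with Pax5 and Ebf1, which define the B lineage, at 0.742 FPKM or less in all 12 libraries. Ddx3y, a gene of the Y chromosome, was listed at 0 in the 3 KO TFH libraries, at 33.6, 2.22 and 5.29 in WT TFH and at 40.5 to 68.4 in the 5 non-TFH libraries that list it. Xist, which is transcribed from the inactive X of females, stood at 14.9 to 23.4 in KO TFH, at 0, 16.03 and 13.7 in WT TFH, at 19.8, 0.326 and 0.0831 in KO non-TFH and at 1.82 and 0.164 in the 2 WT non-TFH libraries that list it. All 4 Y-linked genes examined were at 0 in KO TFH libraries alone, so in the comparisons with WT TFH and with KO non-TFH cells sex cannot be told apart from genotype or sort. Of the 5 sex genes tested, 3 were also called lower in WT TFH than in WT non-TFH cells. Among them were Ddx3y (log2 difference -2.77 ± 0.79 SE, adjusted p = 0.0122) and Kdm5d (-2.65 ± 0.60 SE, adjusted p = 0.00283). Sex is thus also mixed into the WT sort difference and into the difference between cell types. The members lie on autosomes, whose genes can also differ by sex. In bulk RNA, fewer cells of a type and less RNA per cell cannot be told apart.

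**Figure D1:**
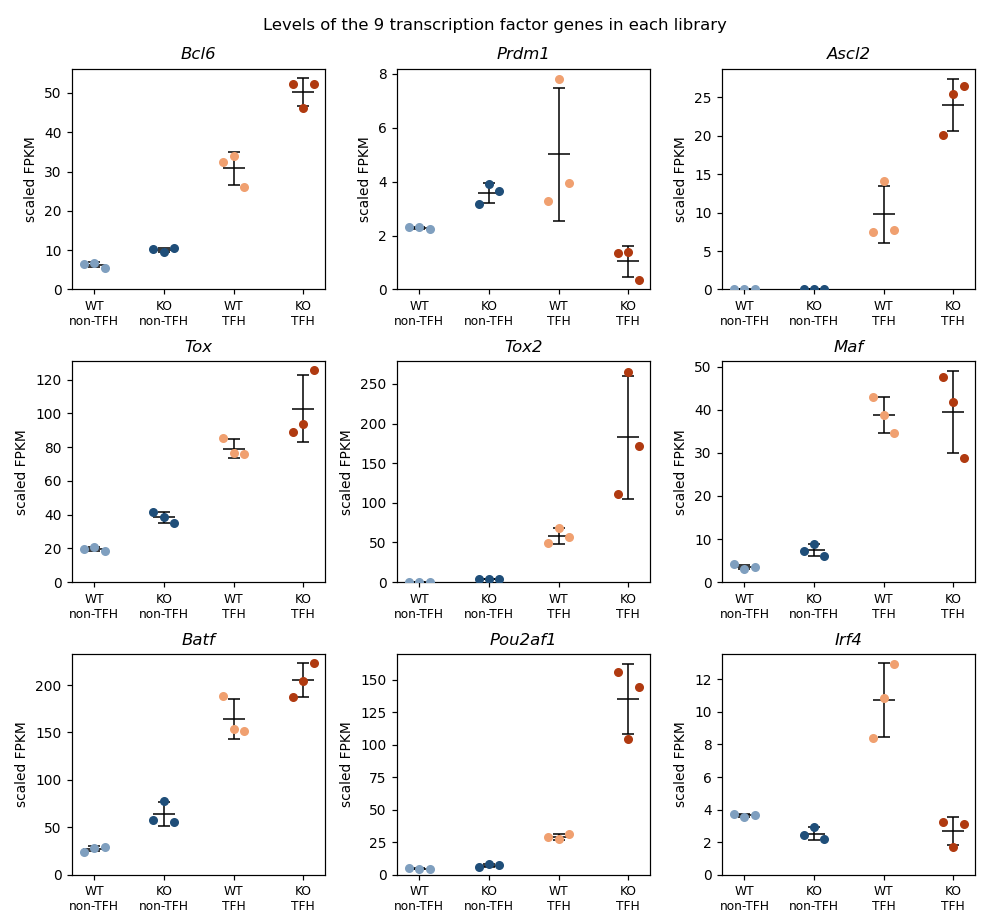
Scaled FPKM of the 9 genes in each library, by group (points: libraries; bars: mean and SD, n = 3; each panel has its own linear axis from 0). Bcl6, Ascl2, Tox2 and Pou2af1 are highest in the 3 KO TFH libraries, while Prdm1 and Irf4 are highest in WT TFH cells on average and low in KO TFH cells.

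Within the WT label, the sort gives the reference pattern, although sex was not balanced between the sorts. All 9 members were called higher in WT TFH than in WT non-TFH cells, where 67.6% of all tested features were called and 35.3% were called higher. The sorts did not overlap for any of the 9, as for 72% of all features. The median log2 difference was 2.44 over the members and 0.05 over all tested features. Tox2 had the largest difference of the members, 5.59 ± 0.26 (SE, adjusted p = 6.01e-09), and ranked 34 of the 11120 features. Without the scaling between libraries the median feature would stand 0.37 (log2) higher in WT TFH than in WT non-TFH cells and 0.27 higher in KO cells, so these differences are relative to the typical gene.

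Bcl6 rose in the libraries labelled KO in both cell types. It stood at 32.3, 33.9 and 26.2 FPKM in WT TFH cells (30.8 ± 4.1 SD, n = 3) and at 52.4, 46.2 and 52.2 in KO TFH cells (50.3 ± 3.51 SD, n = 3). The non-TFH libraries stood at 6.61, 6.62 and 5.56 in WT (6.26 ± 0.61 SD, n = 3) and at 10.3, 9.49 and 10.4 in KO (10.1 ± 0.505 SD, n = 3). No pair of groups overlapped, and the order of the groups was KO TFH, WT TFH, KO non-TFH, WT non-TFH. The KO against WT log2 change was 0.70 ± 0.12 (SE, adjusted p = 0.00138) in TFH cells and 0.61 ± 0.12 (SE, adjusted p = 0.00421) in non-TFH cells, or 1.63-fold and 1.61-fold in mean FPKM. The difference between these changes was 0.09 ± 0.18 (SE, adjusted p = 0.798), and no difference could be shown. KO non-TFH cells held 32.7% of the Bcl6 level of WT TFH cells.

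Prdm1, whose product opposes BCL6, fell in KO TFH cells. It stood at 3.28, 7.82 and 3.93 FPKM in WT TFH cells (5.01 ± 2.45 SD, n = 3) and at 1.35, 1.40 and 0.366 in KO TFH cells (1.04 ± 0.583 SD, n = 3). WT TFH replicate 2 was the highest library, and every KO value lay below every WT value. The log2 change was -1.53 ± 0.28 (SE, adjusted p = 0.00169), and the mean was 4.82-fold lower. In non-TFH cells it stood at 2.30, 2.31 and 2.23 in WT (2.28 ± 0.0412 SD, n = 3) and at 3.16, 3.92 and 3.64 in KO (3.57 ± 0.385 SD, n = 3). Those groups did not overlap either, but the change of 0.48 ± 0.28 (SE) did not pass the test (adjusted p = 0.292). The change in TFH cells differed from that in non-TFH cells by -2.01 ± 0.40 (SE, adjusted p = 0.00462). The order of levels was WT TFH, KO non-TFH, WT non-TFH, KO TFH, with the first pair overlapping.

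The sort difference of Prdm1 thus had opposite signs in the genotypes. In WT mice TFH cells were higher by 0.80 ± 0.28 (SE, adjusted p = 0.0252), and in KO mice they were lower, by a log2 difference of -1.21 ± 0.28 (SE, adjusted p = 0.00247). The WT value was not called without any 1 of the WT non-TFH libraries or without WT TFH replicate 2 (0.49 without that library, adjusted p = 0.102).

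The ratio of Bcl6 to Prdm1 was examined as a summary of the opposed pair, as log2(Bcl6 + 1) minus log2(Prdm1 + 1) in each library. In TFH cells it was 2.96, 1.99 and 2.46 in WT (2.47 ± 0.488 SD, n = 3) and 4.51, 4.30 and 5.28 in KO (4.70 ± 0.52 SD, n = 3). The groups did not overlap, and the mean difference of 2.23 gave p = 0.1 in an exact two-sided permutation test, the smallest value that 3 against 3 libraries allow. In linear terms Bcl6 exceeded Prdm1 by 9.87, 4.34 and 6.65 times in the WT TFH libraries and by 38.8, 32.9 and 143 times in the KO TFH libraries. In non-TFH cells the log2 ratio was 1.14 ± 0.106 (SD, n = 3) in WT and 1.28 ± 0.174 (SD, n = 3) in KO, a difference of 0.13 with overlapping libraries (exact permutation p = 0.4).

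**Figure D2:**
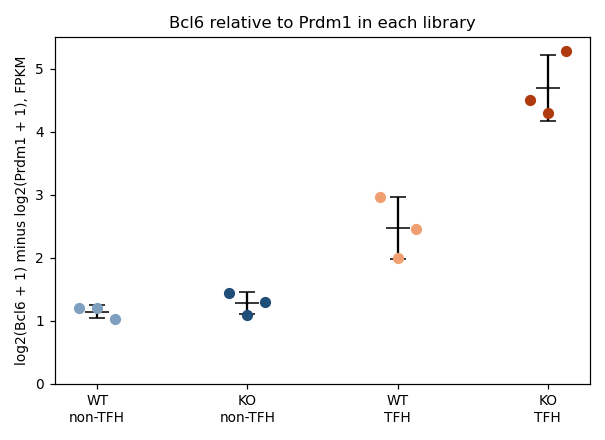
Bcl6 relative to Prdm1, log2(Bcl6 + 1) minus log2(Prdm1 + 1) in FPKM, in each library (points), with group mean and SD (bars, n = 3). The KO TFH libraries lie at 4.30 to 5.28, above the WT TFH libraries at 1.99 to 2.96, while the non-TFH groups overlap.

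Irf4, which is needed for both TFH and effector fates and is higher after strong receptor signals, was the other member that fell in KO TFH cells. It stood at 8.37, 10.8 and 12.9 FPKM in WT TFH cells (10.7 ± 2.29 SD, n = 3) and at 3.24, 1.72 and 3.10 in KO TFH cells (2.69 ± 0.843 SD, n = 3). Non-TFH levels were 3.71, 3.54 and 3.68 in WT (3.64 ± 0.0877 SD, n = 3) and at 2.46, 2.93 and 2.20 in KO (2.53 ± 0.372 SD, n = 3). WT TFH cells alone were set apart at the high end, and KO TFH and KO non-TFH libraries overlapped. The log2 change was -1.68 ± 0.21 (SE, adjusted p = 1.02e-04) in TFH cells, a 3.99-fold lower mean. The change of -0.40 ± 0.21 (SE) in non-TFH cells did not pass the test (adjusted p = 0.219), although all 3 KO values lay below all 3 WT values. The changes differed between the cell types by -1.28 ± 0.29 (SE, adjusted p = 0.0104). The sort difference was 1.32 ± 0.21 (SE, adjusted p = 1.32e-04) in WT cells and 0.04 ± 0.21 (SE, adjusted p = 0.873) in KO cells.

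Macrophages and plasma cells can also express Prdm1 and Irf4, so their markers are set beside these falls. The macrophage sum was 979 to 1641 FPKM in WT TFH and 169.5 to 221.3 in KO TFH libraries, with Csf1r at 133.7, 187.9 and 137.0 against 20.1, 17.1 and 21.0. WT TFH replicate 2, the highest in Prdm1, was also the highest in Csf1r. Irf4 was instead highest in WT TFH replicate 3 (12.9 FPKM), where Csf1r was 137.0. The 6 dendritic cell markers summed to 52.2 to 63.5 FPKM in WT TFH and to 24.5 to 32.6 in KO TFH libraries. Of the 5 tested, 2 were called lower in KO TFH cells. The 6 plasma cell markers summed to 48.1 to 90.7 FPKM in WT TFH and to 87.2 to 118.8 in KO TFH libraries, ranges that overlap. Xbp1, the largest part of that sum, was not called (log2 change 0.42 ± 0.23 SE, adjusted p = 0.195). Of the 4 plasma cell markers tested, 1 was called higher in KO TFH cells. The 3 measured regulatory T cell markers of 5 listed summed to 268 to 288 in WT TFH and 138 to 174 in KO TFH libraries. Most of that fall was Ctla4, with a mean of 183.5 FPKM in WT and 66.2 in KO, and Il2ra was also called lower. Ikzf2 went the other way and was not called (log2 change 0.15 ± 0.14 SE, adjusted p = 0.478), and Foxp3 was not among the 3 measured. The part of these cells in the results was not tested.

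**Figure D3:**
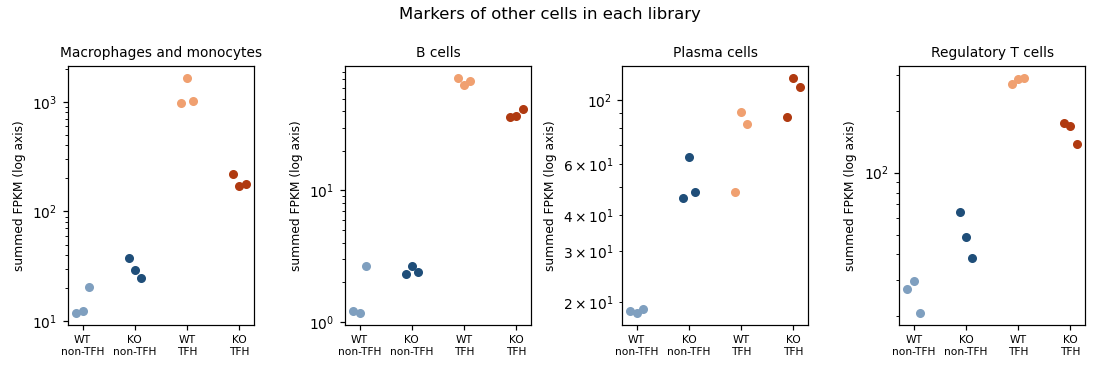
Summed FPKM of the measured markers of 4 other cell types in each library (log axes, each panel with its own range). Macrophage sums are 979 to 1641 in WT TFH and 169.5 to 221.3 in KO TFH libraries. Plasma cell sums are 48.1 to 90.7 and 87.2 to 118.8.

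Among the factors that promote the TFH fate, Ascl2 had no measurable level outside the TFH sort and rose in KO TFH cells. In non-TFH cells it was listed at 0 in 4 of 6 libraries, and the others were at 0.0463 (WT replicate 1) and 0.0498 (KO replicate 3). In TFH cells it stood at 7.53, 14.1 and 7.74 FPKM in WT (9.78 ± 3.71 SD, n = 3) and at 20.1, 25.4 and 26.4 in KO (24 ± 3.4 SD, n = 3). WT replicate 2 was the highest of its group, and the TFH groups did not overlap. The log2 change was 1.26 ± 0.22 (SE, adjusted p = 0.00113), or 2.45-fold. With no measurable level in non-TFH cells, the difference from the non-TFH change restates the change in TFH cells. It was 1.25 ± 0.31 (SE, adjusted p = 0.0150), and this was not called with a pseudocount of 0.1 (adjusted p = 0.0997).

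Tox2 rose in both cell types and had the largest change among the members in non-TFH cells. It stood at 49.2, 68.9 and 56.7 FPKM in WT TFH cells (58.3 ± 9.91 SD, n = 3) and at 111.5, 265.5 and 171.1 in KO TFH cells (183 ± 77.7 SD, n = 3). Outside the TFH sort it stood at 0.221, 0.358 and 0.0970 in WT (0.226 ± 0.131 SD, n = 3) and at 3.87, 4.53 and 3.45 in KO (3.95 ± 0.541 SD, n = 3). The KO TFH libraries were widely spread but all above WT, and no pair of groups overlapped. The log2 change was 1.56 ± 0.26 (SE, adjusted p = 8.22e-04) in TFH cells and 2.01 ± 0.26 (SE, adjusted p = 1.46e-04) in non-TFH cells. In mean FPKM these were 3.14-fold and 17.5-fold, the second from a level near the limit of measurement. The changes differed by -0.46 ± 0.36 (SE, adjusted p = 0.450), which did not pass the test with a pseudocount of 1 but did with 0.1 (-2.14, adjusted p = 0.0105). Even so, KO non-TFH cells held only 6.78% of the Tox2 level of WT TFH cells.

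The Tox2 entries also began at different places, at the windows printed above. In the 3 WT non-TFH libraries the entry began at 163225454 of chromosome 2 (1-based), the start of the downstream window's transcript. It began at 163203169 to 163203218 in KO non-TFH, 163203105 to 163203130 in WT TFH and 163203082 to 163203104 in KO TFH libraries, close to the upstream start at 163203127. The entry of each library was assembled or chosen on its own, and at 0.358 FPKM or less few fragments support the WT non-TFH entries.

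Tox, a relative of Tox2, rose in KO non-TFH cells. It stood at 19.3, 20.9 and 18.3 FPKM in WT non-TFH (19.5 ± 1.3 SD, n = 3) and at 41.5, 38.8 and 34.9 in KO non-TFH cells (38.4 ± 3.3 SD, n = 3). In TFH cells it stood at 85.4, 76.2 and 75.7 in WT (79.1 ± 5.42 SD, n = 3) and at 88.9, 93.7 and 125.5 in KO (103 ± 19.9 SD, n = 3). WT and KO libraries did not overlap in either cell type. The log2 change of 0.94 ± 0.13 (SE, adjusted p = 2.77e-04) in non-TFH cells was called, and that of 0.36 ± 0.13 (SE, adjusted p = 0.0561) in TFH cells was not. The changes differed by -0.58 ± 0.18 (SE, adjusted p = 0.0496), a call that was lost in 18 of 22 alternative analyses.

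Pou2af1, whose product OCA-B is a coactivator of POU factors and is best known in B cells, had the largest rise of the 9 genes in KO TFH cells. It stood at 28.7, 27.4 and 31.6 FPKM in WT TFH (29.2 ± 2.12 SD, n = 3) and at 156.4, 104.7 and 144.5 in KO TFH cells (135 ± 27.1 SD, n = 3). The non-TFH values were 4.89, 4.28 and 4.55 in WT (4.57 ± 0.306 SD, n = 3) and at 6.14, 7.89 and 7.10 in KO (7.04 ± 0.875 SD, n = 3). No pair of groups overlapped. The log2 change in TFH cells was 2.15 ± 0.15 (SE, adjusted p = 1.77e-06), or 4.63-fold, and ranked 95 from the top of 11120 features. In non-TFH cells it was 0.53 ± 0.15 (SE, adjusted p = 0.0285), which was not called without any 1 of the WT libraries or without KO replicate 2 or 3 (adjusted p from 0.0546 to 0.112). The changes differed by 1.63 ± 0.21 (SE, adjusted p = 3.57e-04). The B cell markers were lower in KO TFH libraries, 3 of 5 tested past the threshold, with sums of 62.9 to 71.5 in WT TFH and 36.3 to 41.7 in KO TFH libraries. Plasma cells also express Pou2af1. Their marker sum was 48.1 to 90.7 in WT TFH and 87.2 to 118.8 in KO TFH libraries, which overlap. It was 18.4 to 19.0 in WT non-TFH and 45.9 to 63.6 in KO non-TFH libraries. Of the 4 plasma cell markers tested, 1 was called higher in KO TFH cells and 3 in KO non-TFH cells. Jchain, the joining chain of secreted antibodies, was called higher in TFH cells (log2 change 0.87 ± 0.28 SE, adjusted p = 0.0338) and in non-TFH cells (2.95 ± 0.28 SE, adjusted p = 1.42e-05). The part of either cell type in the result was not tested. Pou2f1, the gene of the partner OCT-1, was listed at 0 in all 6 TFH libraries and at 13.4 to 16.5 FPKM in the 6 non-TFH libraries in scaled values. The authors' tables give these 6 zeros the status OK with both bounds at 0, so they are not marked as failed estimates. That status does not show that the transcript was absent, and unnamed assembled loci entered no result. Pou2f2, the gene of another POU factor, had no value separate from other genes.

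Batf and Maf, early factors of the programme, rose in KO non-TFH cells. Batf had the highest level per length of the 9 genes in all 4 groups. It stood at 24.2, 28.3 and 29.1 FPKM in WT non-TFH (27.2 ± 2.61 SD, n = 3) and at 57.4, 78.3 and 55.3 in KO non-TFH cells (63.7 ± 12.7 SD, n = 3). In TFH cells it stood at 189.0, 153.8 and 151.3 in WT (165 ± 21.1 SD, n = 3) and at 187.7, 204.6 and 223.1 in KO (205 ± 17.7 SD, n = 3). The non-TFH groups were far apart, while in TFH cells WT replicate 1 lay just above KO replicate 1. The log2 change of Batf was 1.19 ± 0.14 (SE, adjusted p = 9.20e-05) in non-TFH cells, or 2.34-fold, and 0.32 ± 0.14 (SE, adjusted p = 0.112) in TFH cells. The changes differed by -0.87 ± 0.20 (SE, adjusted p = 0.0114).

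Maf, which drives Il21 and Il4 in helper cells, stood at 4.13, 3.09 and 3.39 FPKM in WT non-TFH (3.54 ± 0.537 SD, n = 3) and at 7.13, 8.90 and 6.09 in KO non-TFH cells (7.38 ± 1.42 SD, n = 3). In TFH cells it stood at 43.0, 38.7 and 34.6 in WT (38.8 ± 4.22 SD, n = 3) and at 47.5, 41.9 and 28.9 in KO (39.4 ± 9.55 SD, n = 3). KO TFH libraries held both the highest and the lowest of the 6 TFH values. The log2 change of Maf was 0.88 ± 0.19 (SE, adjusted p = 0.00641) in non-TFH cells and 0.00 ± 0.19 (SE, adjusted p = 1) in TFH cells. The changes differed by -0.88 ± 0.27 (SE, adjusted p = 0.0450), a call that was lost in 13 of 22 alternative analyses. Maf is also expressed by macrophages, whose markers were lower in KO TFH and, for 4 of 9, higher in KO non-TFH cells, and their part in the result was not tested.

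Markers of other cells also separated the non-TFH libraries in which Bcl6, Tox, Tox2, Maf, Batf and Pou2af1 rose. The CD8 T cell sum was 10.1 to 14.7 FPKM in WT and 96.4 to 107.4 in KO non-TFH libraries. Nearly all of it was Cd8b1 (log2 change 3.02 ± 0.18 SE, adjusted p = 4.51e-07), while Cd8a, which the CD8 co-receptor needs, was at 0.310 or less in all 6. The regulatory T cell sum was 20.8 to 29.8 in WT and 38.6 to 64.6 in KO, with Ikzf2 (1.48 ± 0.14 SE, adjusted p = 1.88e-05) and Ctla4 (1.25 ± 0.24 SE, adjusted p = 0.00306) called higher. Il2ra, the other of the 3 measured, went the other way and was not called (-0.33 ± 0.24 SE, adjusted p = 0.408). Foxp3 was listed but was not among the 3 measured. Plasma cell sums were 18.4 to 19.0 and 45.9 to 63.6, with Jchain, Mzb1 and Xbp1 called higher. The part of these cells in the 6 rises was not tested.

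**Figure D4:**
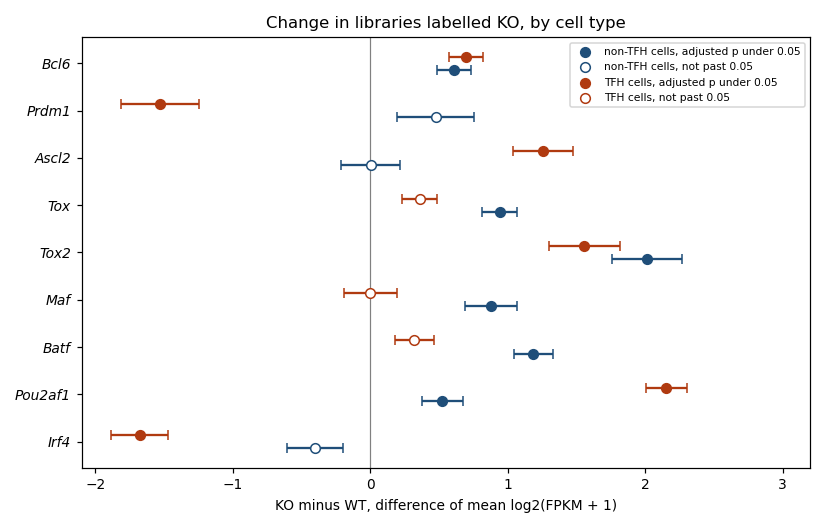
KO minus WT difference of mean log2(FPKM + 1) of each gene in non-TFH and TFH cells (points; bars: SE from limma; filled: adjusted p under 0.05). Prdm1 and Irf4 are to the left of 0 in TFH cells, at -1.53 and -1.68, and Tox, Maf and Batf are called in non-TFH cells and not in TFH cells.

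Counted over the 9 genes, which were chosen with earlier results of these data known, the genotypes differed as follows. In TFH cells 4 members were called higher (Bcl6, Ascl2, Tox2, Pou2af1) and 2 lower (Prdm1, Irf4), where 30.9% of all features were called, 15.8% higher and 15.1% lower. The median change was 0.36 over the members and 0.04 over all features. The genotypes' libraries were fully separate for 7 members (5 higher, 2 lower), and for 38% of all features. In non-TFH cells 6 were called higher (Bcl6, Tox, Tox2, Maf, Batf, Pou2af1), where 20.4% of all features were called, 11.8% higher. By limma 0 members were called lower there, against 8.6% of all features, and 0 were lower at an unadjusted p under 0.05. Libraries were fully separate for 8 members (7 higher, 1 lower), and for 52.1% of all features. With array weights or with the 2 non-TFH groups fitted alone, Irf4 was called lower (adjusted p = 0.0229 and 0.0278) and Prdm1 higher (adjusted p = 0.0389 and 0.0112). The median change there was 0.61 over the members and 0.03 over all features. The difference between the cell types was called for 7 members, 2 with a more positive change in TFH cells (Ascl2, Pou2af1) and 5 with a more negative one (Prdm1, Tox, Maf, Batf, Irf4), where 17.5% of all features were called, 6.86% more positive and 10.6% more negative.

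The sort difference in KO mice was called for 8 of the 9 members, 7 higher in TFH cells and Prdm1 lower, where 67.2% of all features were called, 33.5% higher and 33.6% lower. The sorts did not overlap for those 8, as for 73.7% of all features. The median was 2.21 over the members and 0.02 over all features. Pou2af1 had a TFH against non-TFH difference of 2.44 ± 0.15 (SE) in WT and 4.07 ± 0.15 (SE) in KO cells, and Ascl2 one of 3.36 ± 0.22 (SE) and 4.61 ± 0.22 (SE). Batf narrowed from 2.55 ± 0.14 (SE) to 1.69 ± 0.14 (SE). Bcl6 stood at 2.13 ± 0.12 (SE) and 2.21 ± 0.12 (SE). The tests of these differences are those given above for each gene.

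**Figure D5:**
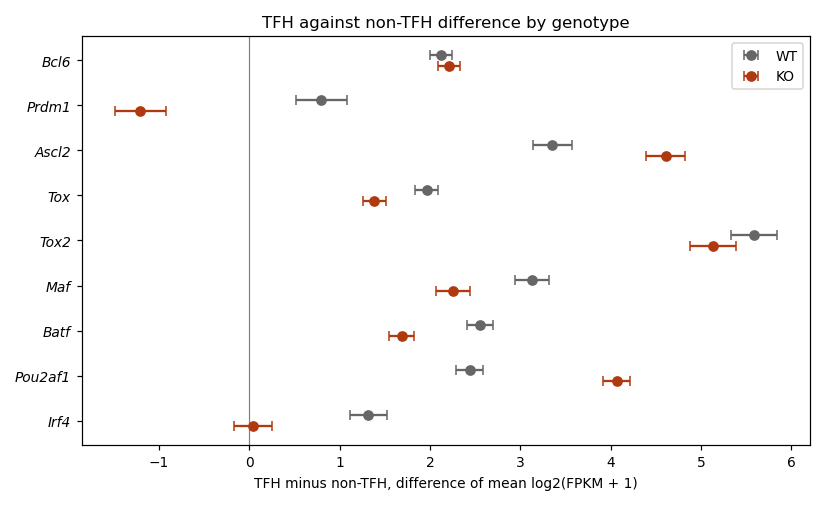
TFH minus non-TFH difference of mean log2(FPKM + 1) of each gene in WT and KO mice (points; bars: SE from limma). Prdm1 is at 0.80 in WT and -1.21 in KO, Irf4 at 1.32 and 0.04, and Pou2af1 at 2.44 and 4.07.

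Genes of the surrounding pathway were counted from lists, which share some genes. The lists were chosen with earlier results of these data known, so their shares are a description. For comparison, 15.8% of all features were higher and 15.1% lower in KO than in WT TFH cells, and 11.8% and 8.6% in non-TFH cells. Of the 16 tested genes of 17 listed that BCL6 is known to repress, 2 were higher (12.5%) and 10 lower (62.5%) in KO than in WT TFH cells, with a median log2 change of -0.76. Ccr7, a chemokine receptor gene whose product draws T cells towards the T zone, dropped from 77.3 ± 6.91 to 20.6 ± 1.5 FPKM (SD, n = 3; log2 change -1.86 ± 0.10 SE, adjusted p = 2.04e-07). Il7r, the interleukin-7 receptor, fell from a range of 32.0 to 51.2 FPKM in WT to a range of 9.71 to 18.9 in KO libraries (-1.59 ± 0.23 SE, adjusted p = 3.60e-04). Between the sorts in WT, where Bcl6 was higher in TFH cells, 7 of the 16 were higher and 7 lower (43.8% each). The shares of all features there were 35.3% and 32.3%. In KO against WT non-TFH cells, where Bcl6 also rose, 8 of the 16 were higher and 2 lower, with a median of 0.55. There Rora, a nuclear receptor gene, rose from 1.28 ± 0.122 to 8.26 ± 0.465 FPKM (SD, n = 3; 2.02 ± 0.24 SE, adjusted p = 7.86e-05), and Il7r fell from 289 ± 16.5 to 96.1 ± 13.7 FPKM (SD, n = 3; -1.58 ± 0.23 SE, adjusted p = 4.41e-04).

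Of the 16 tested factors of 17 listed that oppose the TFH fate, 2 were higher and 10 lower in KO TFH cells (median -0.84), and 5 were higher in KO non-TFH cells (median 0.20). There 0 were called lower by limma, and 1 was lower at an unadjusted p under 0.05. Klf6, an immediate early factor, fell from 164 ± 64.5 to 40.4 ± 6.76 FPKM in TFH cells (SD, n = 3; -1.94 ± 0.28 SE, adjusted p = 3.30e-04). Klf4, which restrains T cell proliferation, fell from 6.64 ± 2.4 to 0.369 ± 0.24 FPKM (SD, n = 3; -2.44 ± 0.73 SE, adjusted p = 0.0282). In non-TFH cells Nr4a1, induced by receptor signals, rose from 19.6 ± 0.951 to 131 ± 84.7 FPKM (SD, n = 3; 2.51 ± 0.32 SE, adjusted p = 1.82e-04). Klf4 rose there too (2.42 ± 0.73 SE, adjusted p = 0.0402), with KO libraries between 3.18 and 39.0 FPKM.

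Of the other factors that promote TFH cells, 3 of 17 tested (18 listed) were higher (17.6%) and 5 lower (29.4%) in KO TFH cells (median -0.02). In KO non-TFH cells 5 were higher (29.4%) and 3 lower (17.6%, median 0.07). The higher share in TFH cells is near the 15.8% of all features. In TFH cells Ikzf1, which encodes Ikaros, rose from 32.1 ± 4.41 to 73.4 ± 10.1 FPKM (SD, n = 3; 1.17 ± 0.13 SE, adjusted p = 6.00e-05) and Notch1 fell from 6.37 ± 1.09 to 2.39 ± 0.572 FPKM (SD, n = 3; -1.12 ± 0.16 SE, adjusted p = 2.88e-04). In non-TFH cells Ikzf3, which encodes Aiolos, rose from 53.7 ± 5.65 to 184 ± 22.9 FPKM (SD, n = 3; 1.76 ± 0.14 SE, adjusted p = 3.34e-06), and Nr4a2 rose by 2.37 ± 0.39 (log2, SE, adjusted p = 0.00106).

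Of the partners of the members, the AP-1 and IRF list had 2 of 15 tested genes (17 listed) higher and 9 lower in KO TFH cells (median -0.56), and 3 higher and 1 lower in KO non-TFH cells (median 0.35). Fos and Junb, whose products pair with or compete with BATF, fell in TFH cells from 607 ± 81.2 to 134 ± 42.7 FPKM (SD, n = 3; -2.21 ± 0.57 SE, adjusted p = 0.0157) and from a range of 828 to 1010 FPKM in WT to a range of 239 to 262 in KO libraries (-1.87 ± 0.40 SE, adjusted p = 0.00591). In KO non-TFH cells Jund rose by 1.27 ± 0.35 (log2, SE, adjusted p = 0.0244) and Nfatc2 fell by 1.31 ± 0.11 on the log2 scale (SE, adjusted p = 5.80e-06). Fos in KO non-TFH cells ranged from 132 to 778 FPKM and did not pass the test. These early response genes and the macrophage sum were both lower in KO than in WT TFH libraries, and the part of either in the other was not tested.

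Of 11 tested BCL6 corepressors (12 listed), 2 were higher (18.2%) and 3 lower (27.3%) in KO TFH cells (median 0.17), and in KO non-TFH cells 1 was lower (9.09%, median -0.16). The higher share in TFH cells and the lower share in non-TFH cells are near those of all features, 15.8% and 8.6%. Mta3 fell in both, from 25.5 ± 2.13 to 9.11 ± 1.08 FPKM in TFH cells (SD, n = 3; -1.39 ± 0.12 SE, adjusted p = 6.12e-06) and from 36.3 ± 2.5 to 14.5 ± 0.369 in non-TFH cells (SD, n = 3; -1.26 ± 0.12 SE, adjusted p = 1.05e-05). Ctbp2 fell by 0.85 ± 0.19 in TFH cells (log2, SE, adjusted p = 0.00567).

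Of the 7 genes bound or driven by ASCL2, 1 was higher and 4 lower in KO TFH cells (median -0.47), and 3 were higher in KO non-TFH cells (median 0.19). Il2ra, which encodes the interleukin-2 receptor alpha chain, fell in TFH cells from 15.6 ± 5.6 to 2.92 ± 0.422 FPKM (SD, n = 3; -2.03 ± 0.24 SE, adjusted p = 6.70e-05). In non-TFH cells Il2rb, the beta chain, rose from 30.1 ± 1.21 to 91.3 ± 2.04 FPKM (SD, n = 3; 1.57 ± 0.08 SE, adjusted p = 1.29e-07). Cxcr4, a chemokine receptor gene, rose there from a mean of 29.6 to 82.7 FPKM (1.39 ± 0.30 SE, adjusted p = 0.00692). Of the 7 genes driven by MAF, 2 were higher and 1 lower in KO TFH cells (median 0.24), and 3 were higher in KO non-TFH cells (median 0.47). Il4, a helper cytokine, rose from 33.1 ± 16.7 to 396 ± 116 FPKM in TFH cells (SD, n = 3; 3.64 ± 0.38 SE, adjusted p = 4.27e-05), where Maf itself had a change of 0.00. Pdcd1, which encodes the PD-1 protein used for the sort, rose from 355 ± 33.3 to 640 ± 58.8 FPKM (SD, n = 3; 0.85 ± 0.10 SE, adjusted p = 8.62e-05). Il10 rose in KO non-TFH cells by 2.45 ± 0.40 (log2, SE, adjusted p = 0.00105), to 2.17 to 8.96 FPKM. Il4 rose there too, from a mean of 0.304 to 2.39 FPKM (1.38 ± 0.38 SE, adjusted p = 0.025).

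Features were also ranked by how closely their pattern over the 12 libraries followed that of Bcl6 and of Prdm1, as the root mean square difference of centred log2(FPKM + 1) among 10083 features. Closest to Bcl6 were Nek7 (0.136), Ndufa1 (0.138) and Snrnp25 (0.139), and the nearest other member was Batf (0.315). Nek7 stood at 24.2 ± 1.58 FPKM in WT non-TFH, 38.8 ± 2.1 in KO non-TFH, 92.5 ± 7.69 in WT TFH and 168 ± 14.7 in KO TFH cells (SD, n = 3 each). Closest to Prdm1 were Apol9b (0.241), Rragd (0.290) and 4930523C07Rik (0.293), and the nearest other member was Irf4 (0.656). Apol9b was highest in WT TFH replicate 2, at 11.98 FPKM, the same library in which Prdm1 was highest. The libraries share depth and cell makeup, and the distances are given as a description.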

How the data were processed

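The authors deposited 1 Cufflinks gene tracking table per library, with an FPKM value and its confidence bounds per gene. Per the submitters' processing notes, the build was mm10 and the tools were Bowtie, Bowtie2, Cuffdiff, Cufflinks, cutadapt, FastQC, TopHat and TopHat2, with versions not given in the sources used here. The files hold no counts, so depth is unknown and no counting interval is given. Each library was quantified apart, and tables also list unnamed assembled loci (12338 to 25171 in WT TFH and 7855 to 10233 in KO TFH libraries), which entered no result.

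A symbol with entries of its own in at least 2 libraries of every group was kept as a feature (22451), and overlapping genes were summed into 795 joint features. Values were scaled by the median ratio over the 7169 features that reached 1 FPKM in each library, which gave factors of 0.852 to 1.13. WT non-TFH replicate 1 lacked genes of chromosomes X and Y, and missing values stayed missing. Group means of log2(FPKM + 1) were fitted over all 12 libraries with limma 3.58.1 (trend and robust moderation, R 4.3.3), with 5 contrasts. Benjamini-Hochberg adjustment ran over the 11120 features that reached 1 FPKM in 3 or more libraries. The fit was tested on simulated data. Python 3.11.15, pandas 2.3.3 and numpy 2.4.6 did the rest, and matplotlib 3.10.9 drew the plots.

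All 9 members are named in every comparison. Of each other pathway list reported, up to 2 called genes with the largest KO against WT change in each cell type are named. By likeness to Bcl6 and to Prdm1, 3 features each are named. The list of relatives of the TOX, MAF and BLIMP families is not reported here. The members and lists were chosen with earlier results of these data known. Alternatives tried were another pseudocount, filter and scaling, the largest entry in place of the sum, array weights, no trend or robust moderation, the compared groups alone, a block on the replicate number and leaving out each library.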

Additional observations from a re-analysis of the deposited data

Results flagged for a closer look

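For 7 of the 9 genes the KO against WT change in TFH cells differed from that in non-TFH cells by the test of the difference itself (limma, log2, change in TFH minus change in non-TFH cells). The difference was -2.01 for Prdm1 (adjusted p = 0.00462), 1.63 for Pou2af1 (adjusted p = 3.57e-04) and -1.28 for Irf4 (adjusted p = 0.0104). It was -0.87 for Batf (adjusted p = 0.0114), -0.88 for Maf (adjusted p = 0.0450) and -0.58 for Tox (adjusted p = 0.0496). For Ascl2 it was 1.25 (adjusted p = 0.0150), which restates its TFH change, since Ascl2 was at 0.0498 FPKM or less in all non-TFH libraries, and which was not called with a pseudocount of 0.1 (adjusted p = 0.0997). Of all tested features, 17.5% had such a difference. In all 3 KO TFH libraries Prdm1 and Irf4 lay below all 3 WT TFH libraries. In non-TFH cells Prdm1 lay above WT in 3 of 3 KO libraries and Irf4 below in 3 of 3.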

How the results depend on the processing

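Over 1002 member changes under alternative analyses, 939 kept their direction and their side of the threshold, 42 lost their call, 6 gained one and 15, none of them called, changed sign. The number of members called stayed within 5 to 7 for KO against WT in TFH cells, 5 to 8 in non-TFH cells, 8 to 9 for the sort difference in WT, 7 to 8 in KO and 5 to 7 for the difference between cell types. Over all features, array weights gave 4116 calls and the compared groups alone 3649 in non-TFH cells (2270 as reported), and 2268 and 2214 in TFH cells (3438 as reported). The cause was not tested. The Tox difference between cell types was lost in 18 of 22 alternatives (adjusted p 0.00576 to 0.127) and that of Maf in 13 of 22 (adjusted p 0.0251 to 0.109). Tox in TFH cells was called without KO TFH replicate 1 (adjusted p = 0.0302), and Prdm1 in the WT sort difference was lost with a pseudocount of 0.1 (adjusted p = 0.0677).

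Sign changes were these. The change of Ascl2 in non-TFH cells, near 0 FPKM, was -0.055 with quantile normalization and -0.001 with array weights, and ranged from -0.022 to 0.023 with 1 library left out. The Bcl6 difference between cell types was -0.004 with quantile normalization and -0.023 to 0.158 with 1 library left out. Irf4 between KO TFH and KO non-TFH cells ranged from -0.075 to 0.247 with 1 library left out. Maf in TFH cells was 0.005 with no scaling and with the largest entry, and -0.146 to 0.203 with 1 library left out.

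Same-numbered libraries of different groups did not deviate together (correlations of -0.035 to 0.059 over 18 pairs). Libraries with different numbers gave a similar range (-0.092 to 0.065 over 36 pairs). These correlations cannot decide whether same-numbered libraries share a mouse, since no pairs known to share a mouse were available for comparison. For the KO label the sex genes do bear on it. Ddx3y was listed at 0 in KO TFH replicates 1 to 3 and at 41.8, 44.8 and 40.5 FPKM in the same-numbered KO non-TFH libraries. Both sorts of a mouse share its sex, so these same-numbered libraries were not drawn from the same mice. A block on the number gave 3255 calls in TFH and 2116 in non-TFH cells. Of the member calls it ended the Tox difference between cell types alone (adjusted p = 0.0859, and 0.127 with genotype and number). At a filter of 5 FPKM Prdm1 was not tested, and Ascl2 gave no value when the non-TFH groups were fitted alone. Low values limit precision most for Tox2, Irf4 and Ascl2 in non-TFH cells.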
